A study of Mus musculus with 16 samples.

Results

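The 10 genes described here encode C-type lectin receptors of myeloid cells: Clec4e, Clec4d, Clec4n, Clec4a2, Clec5a, Clec7a, Clec10a, Clec12a, Mgl2 and Mrc1. They were found by gene symbol in the gene name column of the array files, among probes other than controls, out of 30892 gene names on the array. Each had 1 probe. Of the 10, Clec4e, Clec4d, Clec4n, Clec5a, Clec7a, Clec10a, Mgl2 and Mrc1 were detected, meaning well above background, by 3 or more of the 16 arrays and were therefore among the 24171 genes tested. Clec4a2 and Clec12a were not.

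C-type lectin receptors are surface proteins that bind sugars, lipids and proteins of microbes and of damaged cells. Mincle (Clec4e), MCL (Clec4d) and Dectin-2 (Clec4n) signal through the adaptor FcRγ (Fcer1g), Clec5a signals through DAP12 (Tyrobp), and Dectin-1 (Clec7a) carries its own activating motif. All lead to the kinase Syk and, through Card9 and Malt1, to cytokine genes. DCIR (Clec4a2) and MICL (Clec12a) carry inhibitory motifs that recruit phosphatases, whereas the galactose lectins Mgl1 (Clec10a) and Mgl2 and the mannose receptor (Mrc1) mainly take up glycoproteins and are widely used as markers of tissue-resident or alternatively activated macrophages.

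The samples are macrophages that flow cytometry separated into YFP+ and YFP- cells. From mouse pancreatic tumors came 5 samples of YFP+ and 5 of YFP- cells, and from normal pancreas 3 of each, with 1 array per sample. The labels give C57/B6 as background, female sex and an age of 8 to 10 weeks for all groups, and mark the genotype as not provided. The study design names wild-type, KPC (a genetic model of pancreatic cancer) and FLT3-CRE/LSL-YFP mice, in which a Cre driven by Flt3, a receptor gene of blood progenitors, switches on YFP for good, and the treatment text says that tumors were implanted; which alleles and which kind of tumor a given sample had is not stated. Each title carries a number that may be the mouse, and nothing states that samples came from separate animals, so the p-values measure the spread between these samples only. Flt3 itself averaged -0.06 ± 0.32 in tumor YFP+ cells and -0.33 ± 0.69 in tumor YFP- cells (SD, n = 5 each), with no called difference (log2 difference 0.27 ± 0.43 (SE), limma adjusted p = 0.914).

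Signals are log2 processed signals minus the 75th percentile of the same array, so that 0 marks that percentile; levels are compared between samples of one probe and never between probes. All 10 macrophage markers of the list used (Csf1r, Adgre1, Cd68, Mertk, Fcgr1, Cd14, Itgam, C1qa, C1qb and C1qc) were well above background on every array. Their summed level, on the linear scale relative to the 75th percentile, ranged from 246 to 370 on the tumor arrays and from 257 to 489 on the normal ones. Transcripts of pancreatic acinar cells (Cpa1, Cela1, Prss2, Cela3b, Ctrb1 and Pnlip) summed to 3.14 to 10.1 on the tumor arrays and to 201 to 571 on the normal arrays. Between 64.9% and 75.4% of the spots of an array were well above background, and arrays of the same group correlated across the tested genes at r = 0.908 to 0.977 (genes are not independent replicates). Some libraries stood apart from their group. Normal YFP- sample 23912 had the lowest macrophage (257), acinar (239) and fibroblast (5.64) sums and the highest monocyte (7.005) and neutrophil (37.6) sums of the 3 normal YFP- samples. The T and NK cell sum was 17.8 in tumor YFP- sample 23547, against 3.61 to 5.65 in the other 4 tumor YFP- samples, and 32.1 in normal YFP+ sample 23912, against 2.41 and 4.44 in the other 2. Leaving out either of these 2 samples changed no call of a lectin in any comparison.

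Because every value of a gene rests on 1 probe, the last 30 of the 60 bases of the 8 tested probes are shown, as the array files give them, with their mm9 positions; capitals mark the polyadenylation signal AATAAA, which lay in 3 of the 10 probes (Clec4n, Clec12a and Mgl2, for Clec12a outside its last 30 bases) and in 12.6% of all 39429 probes. An annotation of mm9 was not used here, so exons and untranslated regions are not assigned.
Clec4e probe, chr6:123232878-123232937, minus strand: cgcaagtagaacctgctcagtaggttcaaa
Clec4d probe, chr6:123224788-123224847, plus strand: aattggaagccctcgaagtgatccttgatg
Clec4n probe, chr6:123196969-123197028, plus strand: tgttacttgaaagtataagatgAATAAAca
Clec5a probe, chr6:40525116-40525175, minus strand: tattttgttaatagtcttgagctctcagcc
Clec7a probe, chr6:129411739-129411798, minus strand: tccaaattgctggggatctgtttatagctt
Clec10a probe, chr11:69984254-69984313, plus strand: agcttattgtaggcaacttttgaatgtaac
Mgl2 probe, chr11:69950985-69951044, plus strand: tgtcgcaacAATAAAatttgagctttaatc
Mrc1 probe, chr2:14253273-14253332, plus strand: attgagaactgtatttatccacatgtagaa
Over the whole 60 bases, the probes of the neighbouring paralogs Clec10a and Mgl2 shared no identical run longer than 5 bases on the same strand, and the longest run shared by any 2 of the 10 probes was 9 bases. Probes were compared with each other and not with transcripts, so whether a probe also matches a paralog was not tested. The probes of Clec4n, Clec4d and Clec4e lay beside each other on chromosome 6, 27.8 kb and 8.09 kb apart, and those of Mgl2 and Clec10a lay 33.3 kb apart on chromosome 11.

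Promoter sequence was taken from RefSeq (GRCm38.p6) as the 250 bases before the outermost gene start, and 8 of the 10 genes had an entry. The promoters of 4 activating receptors that rose in tumor and of Mrc1, whose differences were negative, are shown, 5′ to 3′ on the strand of the gene, with motif matches in capitals.
Clec4e promoter, chr6:123289872-123290121, minus strand: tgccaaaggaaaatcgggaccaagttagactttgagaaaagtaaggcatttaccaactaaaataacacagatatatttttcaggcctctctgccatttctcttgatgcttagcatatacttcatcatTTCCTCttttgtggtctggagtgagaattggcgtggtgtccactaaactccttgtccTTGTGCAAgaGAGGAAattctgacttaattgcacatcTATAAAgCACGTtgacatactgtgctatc
Clec4d promoter, chr6:123261857-123262106, plus strand: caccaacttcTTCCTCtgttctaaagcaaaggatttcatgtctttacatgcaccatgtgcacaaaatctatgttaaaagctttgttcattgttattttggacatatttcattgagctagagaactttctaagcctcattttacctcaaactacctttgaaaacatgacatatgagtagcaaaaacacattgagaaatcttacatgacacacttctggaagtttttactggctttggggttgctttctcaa
Clec5a promoter, chr6:40585806-40586055, minus strand: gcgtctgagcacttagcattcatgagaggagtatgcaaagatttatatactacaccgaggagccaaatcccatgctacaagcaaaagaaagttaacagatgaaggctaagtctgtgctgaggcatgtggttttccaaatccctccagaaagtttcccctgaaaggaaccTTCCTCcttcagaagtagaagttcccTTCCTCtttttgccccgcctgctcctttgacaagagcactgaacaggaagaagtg
Clec7a promoter, chr6:129472786-129473035, minus strand: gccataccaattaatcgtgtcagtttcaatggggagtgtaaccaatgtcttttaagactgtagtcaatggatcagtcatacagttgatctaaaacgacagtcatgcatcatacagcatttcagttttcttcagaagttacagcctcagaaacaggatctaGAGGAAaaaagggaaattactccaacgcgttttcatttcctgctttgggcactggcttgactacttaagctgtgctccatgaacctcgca
Mrc1 promoter, chr2:14229164-14229413, plus strand: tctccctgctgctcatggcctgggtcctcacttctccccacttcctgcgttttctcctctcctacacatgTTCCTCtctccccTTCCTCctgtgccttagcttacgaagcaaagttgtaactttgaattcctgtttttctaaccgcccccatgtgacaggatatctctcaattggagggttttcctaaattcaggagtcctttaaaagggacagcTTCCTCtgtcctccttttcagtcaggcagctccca
The letters searched were GAGGAA for the myeloid factor PU.1, TTNNGCAA for C/EBP, TGANTCA for AP-1 and ACGTG for the hypoxia response, each on both strands, and TATAAA on the strand of the gene. GAGGAA or its complement was found in 7 of the 8 promoters (all but Clec4a2), against 23.3% of all 32851 promoter windows. TTNNGCAA was found before Clec4e and Clec12a (9.56% of all windows), ACGTG before Clec4e only (16.6%), TATAAA before Clec4e and Clec4a2 (7.59%), and TGANTCA before Clec12a only (6.75%). These are matches of letters, not sites of binding.

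The main comparison asked how macrophages of tumors differed from those of normal pancreas, separately for each population. Among YFP+ cells 5 of the 8 tested lectins were higher in tumor and none was lower, whereas 12.1% of all genes passed the test (6.04% higher, 6.06% lower). In YFP- cells the same 5 genes were higher and 2 were lower, against 15.8% of all genes (8.06% higher, 7.77% lower). The genes that rose in both populations were Clec4e, Clec4d, Clec4n, Clec5a and Clec7a, the activating receptors. Clec5a was well above background on 1 of the 6 normal arrays and so came into the test only through the tumor arrays, where it was high. The median log2 difference of the 8 genes was 1.73 in YFP+ and 2.06 in YFP- cells, beside -0.04 and -0.16 over all genes. In sorted bulk cells, fewer cells with a transcript and less of it per cell cannot be told apart. Whether tumor and normal arrays overlapped is described below for single lectins. The share of all genes without overlap was not counted, so a lack of overlap does not set these genes apart.

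**Figure D1:**
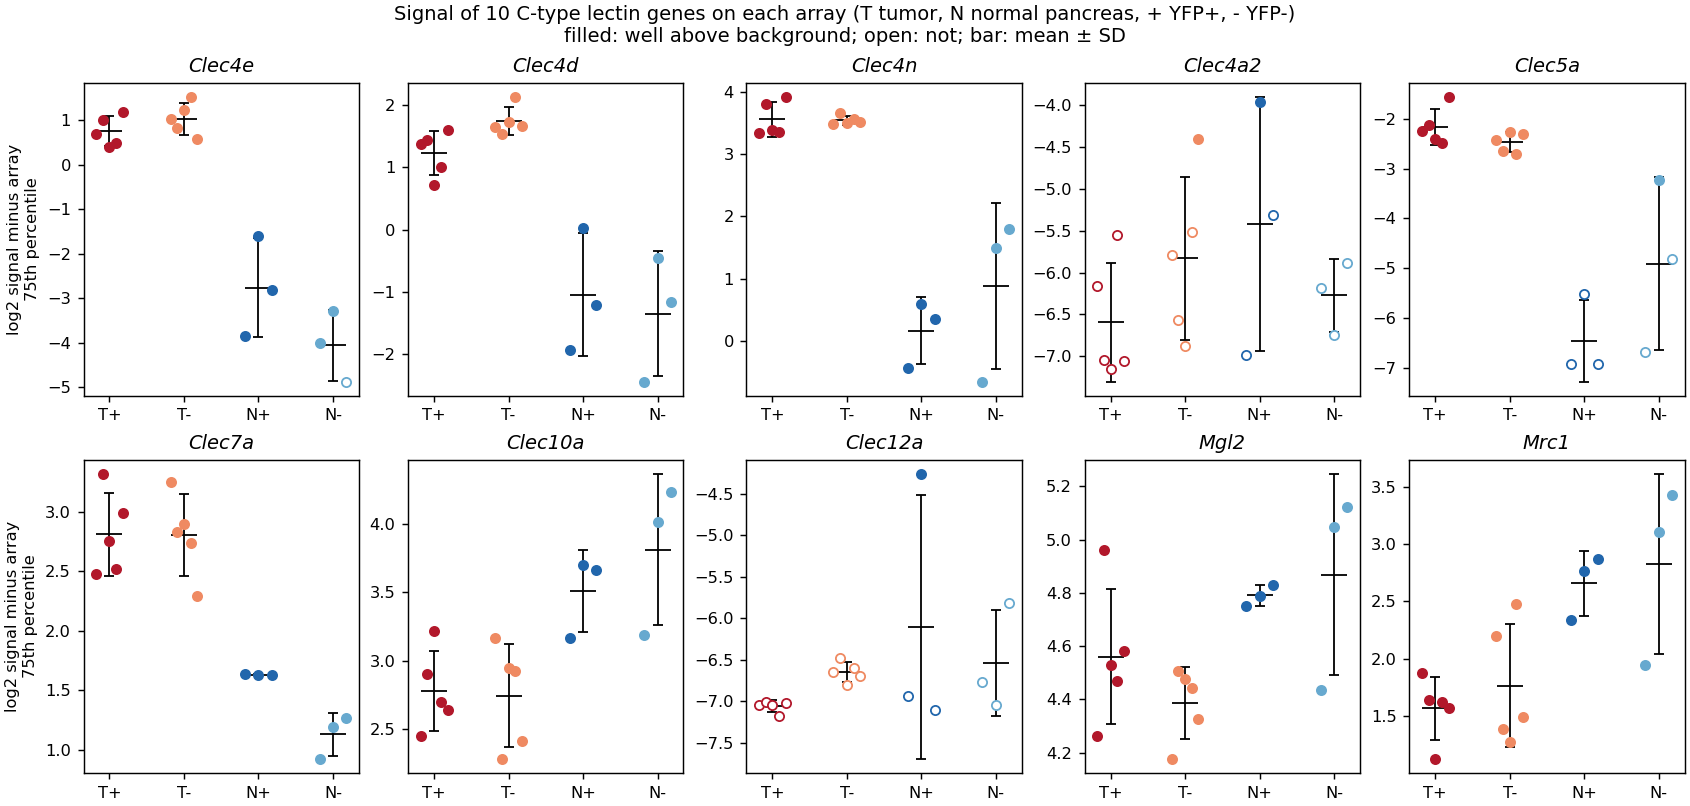
Signal of the 10 lectin genes on each of the 16 arrays (y axis, log2 processed signal minus the 75th percentile of the array; x axis, the 2 tumor groups, T+ and T-, then the 2 of normal pancreas, N+ and N-), with filled points well above background, open points not, and bars for mean ± SD. Clec4e, Clec4d, Clec4n, Clec5a and Clec7a sit higher on all 10 tumor arrays than on the 6 normal arrays, while Clec4a2 and Clec12a are well above background on 2 and 1 of the 16 arrays. The share of all genes that separate in this way was not counted.

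Clec4e encodes Mincle, a receptor for microbial glycolipids and for material released by dying cells. In YFP+ cells it read 0.40, 0.48, 0.69, 1.001 and 1.18 on the tumor arrays, against -3.85, -2.83 and -1.61 on the normal arrays. In YFP- cells it read 0.58, 0.82, 1.01, 1.23 and 1.51 in tumor and -4.87, -4.01 and -3.28 in normal pancreas, where 2 of the 3 arrays were well above background. Every tumor array lay above every normal array. Clec4e was 11.4-fold higher in tumor YFP+ cells (log2 difference 3.51 ± 0.43 (SE), limma adjusted p = 9.53e-05) and 34.0-fold higher in tumor YFP- cells (5.09 ± 0.43, adjusted p = 2.37e-06). With normexp background correction, which draws dim signals together, the differences were 2.73 and 3.71 on the log2 scale and still passed.

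Clec4d encodes MCL, which pairs with Mincle at the cell surface. Its tumor YFP+ arrays read 0.72, 1.003, 1.37, 1.44 and 1.60, against -1.94, -1.22 and 0.02 in normal YFP+ cells. Its tumor YFP- arrays read 1.54, 1.65, 1.66, 1.73 and 2.12, against -2.44, -1.16 and -0.46 in normal YFP- cells. The groups did not overlap, and the normal arrays spread more widely (SD 0.99 and 1.01) than the tumor arrays (SD 0.36 and 0.23). The rise was 4.83-fold in YFP+ cells (2.27 ± 0.43, adjusted p = 0.00259) and 8.55-fold in YFP- cells (3.10 ± 0.43, adjusted p = 2.09e-04).

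Clec4n encodes Dectin-2, a receptor for mannose-rich sugars. It read 3.34, 3.35, 3.38, 3.81 and 3.91 in tumor YFP+ cells, against -0.43, 0.35 and 0.59 in normal YFP+ cells. It read 3.49, 3.50, 3.51, 3.56 and 3.66 in tumor YFP- cells, against -0.65, 1.49 and 1.80 in normal YFP- cells. The tumor YFP- samples were close to each other, and the normal YFP- group held 1 low sample, 23912. Clec4n was 10.5-fold higher in tumor among YFP+ cells (3.39 ± 0.42, adjusted p = 9.98e-05) and 6.34-fold higher among YFP- cells (2.66 ± 0.42, adjusted p = 5.66e-04). Without sample 23912 the difference in YFP- cells was 1.90 (adjusted p = 1.94e-04).

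Clec5a, the DAP12-coupled receptor, was near or below background in normal pancreas. Tumor YFP+ cells gave -2.49, -2.41, -2.24, -2.12 and -1.57, all well above background, and normal YFP+ cells gave -6.94, -6.93 and -5.51, none of them well above background. Tumor YFP- cells gave -2.71, -2.64, -2.43, -2.31 and -2.26, against -6.69, -4.82 and -3.22 in normal YFP- cells, of which 1 (23916) was well above background. No tumor array overlapped a normal one. For YFP+ cells the fold is a bound, with each normal array set no lower than its dimmest signal that was well above background: Clec5a was at least 5.94-fold higher in tumor (adjusted p = 1.42e-04). In YFP- cells, with 1 of 3 normal arrays measured above background, the log2 difference was 2.44 ± 0.56 (adjusted p = 0.00792), a call that was lost when arrays were weighted by their quality (log2 difference 1.13, adjusted p = 0.0784). The size depended on the dim arrays: with normexp background correction the log2 differences were 1.66 in YFP+ and 1.19 in YFP- cells. In YFP- cells it was 1.55 without normal YFP- sample 23912 and 3.29 without 23916, all past the threshold.

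Clec7a encodes Dectin-1, the receptor for fungal beta-glucans. It read 2.48, 2.52, 2.75, 2.99 and 3.32 in tumor YFP+ cells, and 1.63 in each of the 3 normal YFP+ samples, which came from 3 slides. In YFP- cells it read 2.29, 2.74, 2.83, 2.90 and 3.25 in tumor, against 0.92, 1.19 and 1.27 in normal pancreas. The groups again did not overlap. The rise was 2.26-fold in YFP+ cells (1.18 ± 0.22, adjusted p = 0.00259) and 3.19-fold in YFP- cells (1.68 ± 0.22, adjusted p = 1.43e-04). In the main fit these were the smallest differences of the 5 rising genes. In YFP- cells Clec5a differed by less than Clec7a with normexp background correction (1.19 against 1.58) and with array weights (1.13 against 1.68).

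**Figure D2:**
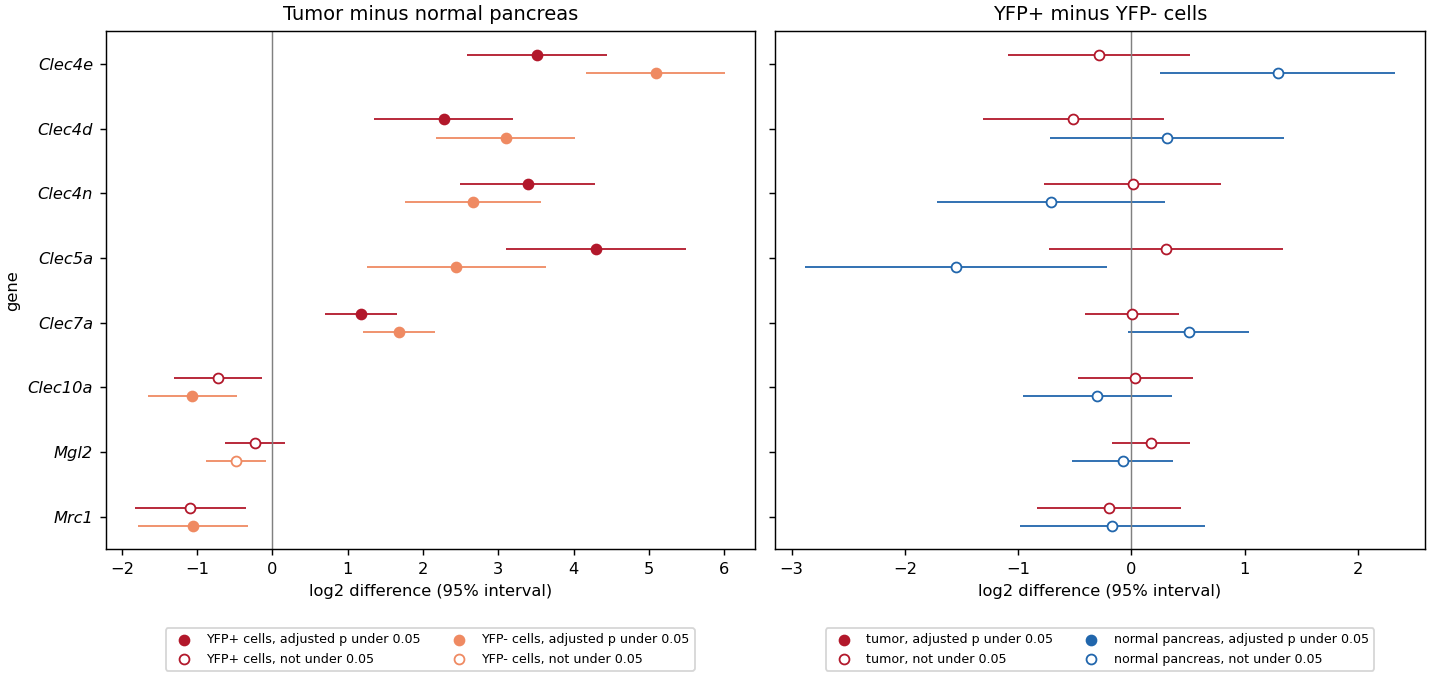
Log2 differences of the 8 tested lectins with 95% intervals (x axis) for tumor minus normal pancreas (left) and YFP+ minus YFP- cells (right); filled points passed an adjusted p of 0.05. On the left 5 genes lie above 0 in both populations, from 1.18 for Clec7a to 5.09 for Clec4e, and on the right no point is filled. Clec5a was well above background on 0 of 3 normal YFP+ and 1 of 3 normal YFP- arrays. Its points and intervals, except that for YFP+ minus YFP- in tumor, therefore rest on dim signals.

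Of the endocytic receptors, Clec10a and Mrc1 fell in tumor YFP- cells, and no difference of the 3 genes passed in YFP+ cells. Clec10a (Mgl1) read 2.45, 2.64, 2.70, 2.90 and 3.22 in tumor YFP+ cells, against 3.17, 3.66 and 3.70 in normal YFP+ cells. It read 2.29, 2.41, 2.93, 2.95 and 3.16 in tumor YFP- cells, against 3.19, 4.01 and 4.23 in normal YFP- cells. The YFP+ groups overlapped by 1 sample and the YFP- groups did not. Clec10a fell in YFP- cells (log2 difference -1.06 ± 0.27, 2.09-fold lower in tumor, adjusted p = 0.0161), but not past the threshold without normal YFP- sample 23916 (adjusted p = 0.0788) or 23917 (0.0874). In YFP+ cells the difference was -0.73 ± 0.27 (adjusted p = 0.109), and it passed with quantile normalization (-0.92, adjusted p = 0.0371).

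Mrc1, the mannose receptor, read 1.13, 1.57, 1.62, 1.64 and 1.87 in tumor YFP+ cells, against 2.33, 2.77 and 2.87 in normal YFP+ cells. It read 1.27, 1.39, 1.50, 2.19 and 2.48 in tumor YFP- cells, against 1.94, 3.11 and 3.43 in normal YFP- cells. The YFP+ groups were apart, and the YFP- groups overlapped. The log2 difference was -1.09 ± 0.34 in YFP+ cells (2.13-fold lower in tumor, adjusted p = 0.0520) and -1.06 ± 0.34 in YFP- cells (2.09-fold lower, adjusted p = 0.0488), so that only the second passed and both lay close to the threshold. With the slide as a block the YFP+ difference passed too (-1.25, adjusted p = 0.0324), whereas the YFP- call was lost without tumor YFP- sample 23550 (adjusted p = 0.104), 23548 (0.0995) or 23677 (0.0702), or without normal YFP- sample 23917 (0.193) or 23916 (0.180).

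Mgl2, the second galactose lectin, read 4.26, 4.47, 4.53, 4.58 and 4.96 in tumor YFP+ cells and 4.75, 4.79 and 4.83 in normal YFP+ cells. It read 4.18, 4.33, 4.44, 4.48 and 4.51 in tumor YFP- cells, against 4.44, 5.05 and 5.12 in normal YFP- cells. Both comparisons overlapped. Its differences were -0.23 ± 0.19 in YFP+ cells (95% interval -0.63 to 0.17, adjusted p = 0.531) and -0.48 ± 0.19 in YFP- cells (-0.88 to -0.08, adjusted p = 0.0991). Without normal YFP- sample 23912 the YFP- difference passed (-0.70, adjusted p = 0.0194), as it did with quantile normalization (-0.62, adjusted p = 0.0377).

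The inhibitory receptors could not be tested. Clec4a2 (DCIR) was well above background only on the arrays of tumor YFP- sample 23677 (-4.40) and normal YFP+ sample 23916 (-3.96), and its 16 values lay between -7.15 and -3.96. Clec12a (MICL) was well above background only on that of normal YFP+ sample 23916 (-4.27), within a range of -7.18 to -4.27. The phosphatases that such receptors recruit were measured well. Ptpn6 differed by -0.10 ± 0.17 in YFP+ and 0.23 ± 0.17 in YFP- cells (adjusted p = 0.805 and 0.374), and Inpp5d by -0.02 ± 0.17 and 0.09 ± 0.17 (0.967 and 0.750).

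Each slide held 4 arrays, and tumor and normal arrays of the same population lay side by side on 3 slides, with 1 array each. Within these slides the tumor minus normal difference of the 5 rising genes was positive every time. For Clec4e, Clec4d, Clec4n and Clec7a it ran from 1.12 to 5.02 in YFP+ cells and from 1.37 to 5.70 in YFP- cells, the highest being Clec4e against normal YFP- sample 23917, where it was not well above background. For Clec5a a size can be read on 1 slide only, that of normal YFP- sample 23916, where the difference was 0.80. With the slide as a block, the first 4 genes differed by 1.20 to 3.46 in YFP+ cells and by 1.60 to 4.78 in YFP- cells, and all 5 passed in both (adjusted p = 7.77e-04 and 0.0190 for Clec5a). Clec10a differed by -0.80, -0.53 and -0.45 within slides in YFP+ cells and by -1.95, -0.77 and -0.85 in YFP- cells. For Mrc1 the within-slide differences were -1.13, -0.76 and -1.74 in YFP+ cells and -2.04, -0.45 and -0.92 in YFP- cells. Mgl2 differed by 0.17, -0.17 and -0.30 in YFP+ cells and by -0.61, -0.11 and -0.87 in YFP- cells.

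Some, but not all, listed markers of other myeloid cells were also higher in tumor. Neutrophils and monocytes are known to express several of the rising lectins too, and the part of these cells in the lectin differences was not tested. Of 9 neutrophil markers on the array, 5 rose in tumor in both populations: S100a8, S100a9, Retnlg, Mmp8 and Cxcr2. Over all genes 6.04% were higher in tumor in YFP+ and 8.06% in YFP- cells. The log2 difference of S100a8 was 3.52 ± 1.09 in YFP+ and 6.45 ± 1.09 in YFP- cells (limma adjusted p = 0.0485 and 9.51e-04). Only 2 of 3 normal YFP+ and 1 of 3 normal YFP- arrays were well above background for S100a8, so these sizes rest in part on dim signals. In YFP- cells 7 of the 9 passed. The granulocyte receptor gene Csf3r, also on the list, differed by -0.19 ± 0.14 and -0.13 ± 0.14 (adjusted p = 0.456 and 0.541). Summed over the list, the level was 35.1 to 42.3 in tumor YFP+ and 28.9 to 36.2 in normal YFP+ cells, which overlapped, and 46.6 to 59.1 in tumor YFP- and 32.0 to 37.6 in normal YFP- cells, which did not. Of the 9, between 5 and 8 were well above background on a normal array and all were on every tumor array.

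Among 5 monocyte markers on the array, Chil3 and Vcan rose in tumor in both populations, with log2 differences of 5.41 ± 0.48 and 6.17 ± 0.48 for Chil3 in YFP+ and YFP- cells (adjusted p = 4.63e-06 and 1.01e-06). Ccr2 fell in YFP+ cells (-1.71 ± 0.33, adjusted p = 0.00269) and differed by -0.68 ± 0.33 in YFP- cells (adjusted p = 0.175). The monocyte sum was 11.3 to 19.5 in tumor YFP+ and 5.33 to 10.02 in normal YFP+ cells, and 10.6 to 23.6 in tumor YFP- and 1.86 to 7.005 in normal YFP- cells. Acinar transcripts, given above, were lower in tumor for 6 of 6 genes in both populations. Of the 10 macrophage markers only Adgre1 was called in both, lower in tumor (log2 difference -0.94 ± 0.26 in YFP+ and -1.02 ± 0.26 in YFP- cells, adjusted p = 0.0286 and 0.0156).

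Markers of other cells were counted too, beside 12.1% of all genes called in YFP+ and 15.8% in YFP- cells. Against these shares, a count of 1 or 2 genes in a list is not a result about that cell type. Of 5 tested mast cell and basophil markers, 5 rose in tumor YFP- cells and none passed in YFP+ cells. Their sum was 6.17 to 39.8 in tumor YFP- and 1.18 to 3.26 in normal YFP- cells, and it was 1.13 to 2.92 in tumor YFP+ and 1.002 to 1.99 in normal YFP+ cells. Of 5 epithelial markers, 2 rose in YFP+ cells (Krt19 and Epcam) and 4 in YFP- cells, with sums of 3.72 to 5.43 in tumor YFP+ and 2.09 to 3.11 in normal YFP+ cells, and of 14.6 to 27.8 in tumor YFP- and 3.29 to 4.53 in normal YFP- cells. Of 5 B cell markers, 3 rose in YFP+ cells, with sums of 8.15 to 18.1 in tumor and 3.09 to 5.15 in normal pancreas, and 2 rose in YFP- cells, with sums of 3.87 to 9.03 in tumor and 2.97 to 6.45 in normal pancreas. Of 7 fibroblast markers, 1 fell in YFP+ cells and 2 rose in YFP- cells. Of 10 dendritic cell markers, 2 rose and 1 fell in YFP+ cells, and 1 rose and 1 fell in YFP- cells. Of 4 endothelial markers 1 rose in each population, and of 6 T and NK cell markers none passed in either. The part of these cell types in the lectin differences was not tested.

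The genes beside the rising lectins on chromosome 6 did not all move with them. They were taken as neighbours of the 10 genes and were chosen after their values had been seen. The Clec4 group holds 9 genes of the lists over 348 kb of mm9, from Clec4a1 to Clec4e. At one end Clec4n, Clec4d and Clec4e rose. At the other end Clec4a1 fell by 2.32 ± 0.37 in YFP+ and by 2.06 ± 0.37 in YFP- cells on the log2 scale (adjusted p = 7.18e-04 and 0.00153), and Clec4a3 fell by 1.82 ± 0.33 and 1.74 ± 0.33 (0.00199 and 0.00254). Between them, Clec4b1 (DCAR, which couples to FcRγ) rose by 0.66 ± 0.17 and 1.04 ± 0.17 (0.0206 and 8.41e-04), Clec4a4 (DCIR2) differed by -0.57 ± 0.32 (0.315) in YFP+ cells and was at least 1.45-fold lower in tumor YFP- cells (0.0330), where no array was well above background, and Clec4b2 did not pass in either. In all, 4 of the 8 tested genes were higher and 2 lower in YFP+ cells, and 4 were higher and 3 lower in YFP- cells, beside 12.1% and 15.8% of all genes called in either direction. Of the 4 higher genes, 3 are Clec4n, Clec4d and Clec4e, already counted above. Clec4a1, Clec4a2, Clec4a3 and Clec4a4 are close paralogs, and cross-hybridisation among them was not tested.

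The Clec7a group holds 7 genes of the lists over 120 kb, of which 6 were tested. Clec9a, a receptor for dead cells on dendritic cells, Clec7a and Olr1, a receptor for oxidised lipoprotein, were higher in tumor in both populations, and none was lower. Of all genes, 6.04% were higher in YFP+ and 8.06% in YFP- cells, and Clec7a was already counted above. Clec9a rose by 2.95 ± 0.58 in YFP+ cells (adjusted p = 0.00318). In normal YFP- cells it was not well above background, and it was at least 4.51-fold higher in tumor YFP- cells (adjusted p = 6.86e-04). Olr1 was well above background on none of the 6 normal arrays, so that it too was tested only through the tumor arrays, and was at least 5.85-fold higher in tumor YFP+ cells and at least 7.97-fold higher in tumor YFP- cells (adjusted p = 1.93e-04 and 1.59e-05).

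**Figure D3:**
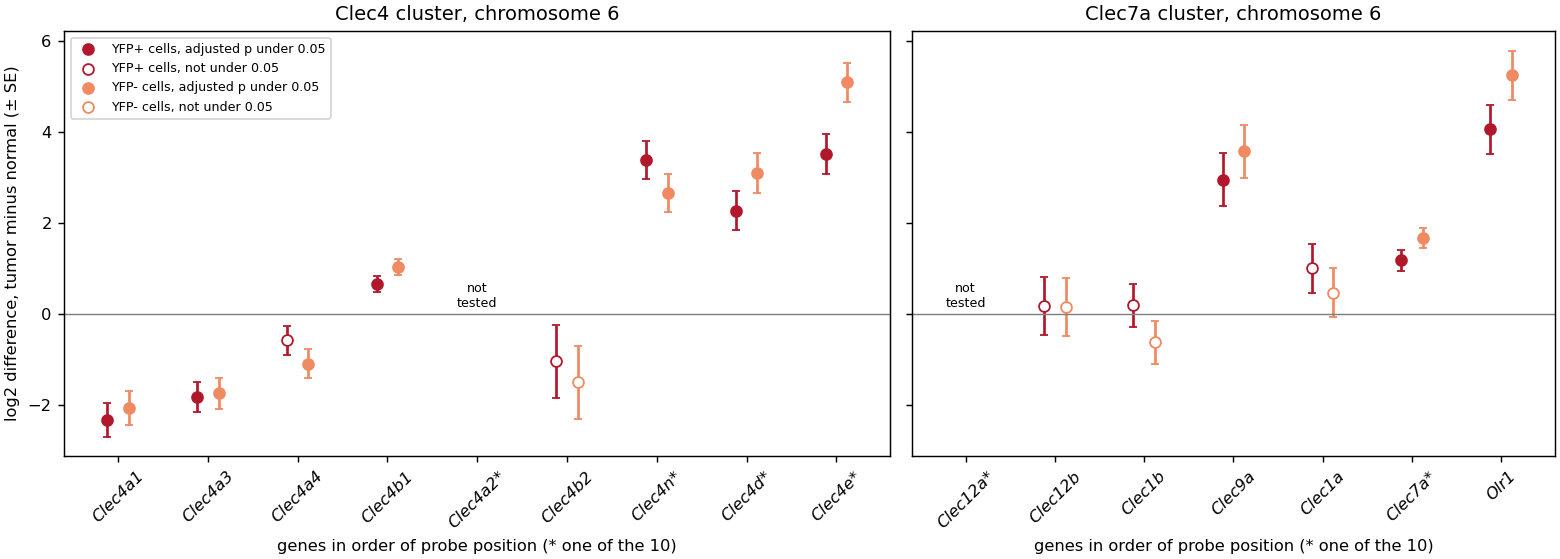
Log2 difference, tumor minus normal pancreas, with SE (y axis) of the lectin genes in the order of their probes along 2 stretches of chromosome 6 (x axis), for each population; filled points passed an adjusted p of 0.05. In the Clec4 group the values run from -2.32 for Clec4a1 to 5.09 for Clec4e, and Clec4a2 and Clec12a were not tested.

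The 10 genes can be set beside 27 other lectin receptors of myeloid and endothelial cells that were tested. Of these, 3 were higher and 8 lower in tumor YFP+ cells (median log2 difference -0.61), and 3 were higher and 7 lower in tumor YFP- cells (median -0.62), beside the shares of all genes given above. The 6 that fell in both were Cd209b, Cd209f, Cd209g, Clec4a1, Clec4a3 and Colec12. Cd209b, a pathogen receptor of marginal zone macrophages, was well above background on all 6 normal arrays and on none of the 10 tumor arrays. It therefore came into the test only through the normal arrays, where it was high. Cd209b was at least 7.83-fold lower in tumor YFP+ and at least 5.63-fold lower in tumor YFP- cells (adjusted p = 1.67e-05 and 5.86e-05). Cd209f, measured on all arrays, fell by 4.41 ± 0.52 in YFP+ and by 4.10 ± 0.52 in YFP- cells on the log2 scale (adjusted p = 6.14e-05 and 8.89e-05).

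Of the signaling genes that the activating lectins share, Fcer1g, Tyrobp, Syk and Card9 were nearly level between tissues, and some others were not. Fcer1g (FcRγ) differed by 0.04 ± 0.16 in YFP+ and 0.10 ± 0.16 in YFP- cells, Tyrobp (DAP12) by 0.03 ± 0.15 and -0.000127 ± 0.15, Syk by -0.18 ± 0.14 and 0.03 ± 0.14, and Card9 by -0.00653 ± 0.23 and -0.00279 ± 0.23, none of them past the threshold (adjusted p = 0.481 to 0.9996). Of the 17 signaling genes tested, 3 were higher and 1 lower in tumor YFP+ cells, and 4 were higher and 1 lower in tumor YFP- cells, beside 12.1% and 15.8% of all genes. Malt1, the protease of the Card9 complex, rose by 2.16 ± 0.20 and 2.89 ± 0.20 (adjusted p = 6.26e-06 and 3.03e-07) and the kinase gene Src by 3.57 ± 0.25 and 2.56 ± 0.25 (3.64e-07 and 7.95e-06). Nfatc1 rose by 0.93 ± 0.14 and 0.79 ± 0.14 (4.99e-04 and 0.00146), Nfatc2, a related transcription factor gene, fell by 1.11 ± 0.19 and 1.30 ± 0.19 (0.00135 and 3.58e-04), and the ubiquitin ligase gene Traf6 rose in YFP- cells (2.48 ± 0.67, 0.0215).

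Of 17 genes that activating lectins are known to induce in myeloid cells, 13 were tested, and the other 4 were well above background on fewer than 3 arrays or lacked a value. Of the 13, 10 were higher and none lower in tumor in each population, and 9 were higher in both, beside 6.04% of all genes higher in YFP+ and 8.06% in YFP- cells. Il23a, a cytokine subunit gene, was well above background on 2 of the 6 normal arrays and came into the test only through the tumor arrays. These genes answer to many other signals as well. Il1b averaged 4.37 in tumor YFP+ and 1.29 in normal YFP+ cells, a rise of 3.09 ± 0.16, and 4.47 in tumor YFP- and 0.66 in normal YFP- cells, a rise of 3.81 ± 0.16 (adjusted p = 2.40e-08 and 6.06e-09). The inflammasome gene Nlrp3 rose by 2.22 ± 0.26 and 2.26 ± 0.26 (5.67e-05 and 3.69e-05) and the neutrophil attractant gene Cxcl2 by 2.20 ± 0.37 and 2.63 ± 0.37 (0.00115 and 2.42e-04). Ptgs2, the inducible cyclooxygenase, rose by 3.12 ± 0.84 in YFP+ cells (0.0249), where all 3 normal arrays were well above background. It rose in YFP- cells too (3.66e-04), as did the cytokine gene Il6 in both populations (0.0354 and 0.00108), but 1 or 2 of the 3 normal arrays were well above background there, and the sizes of these differences are not given.

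**Figure D4:**
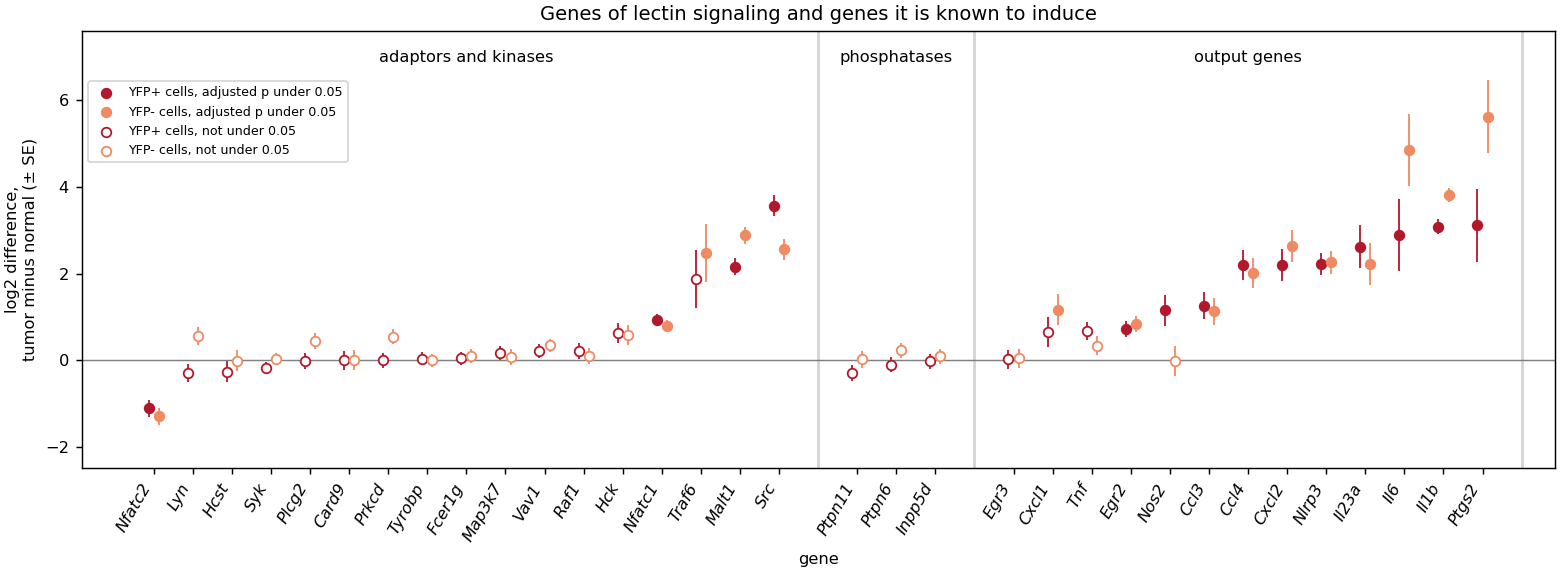
Log2 difference, tumor minus normal pancreas, with SE (y axis) for 17 adaptor and kinase genes, 3 phosphatase genes and 13 output genes of lectin signaling (x axis), for each population; filled points passed an adjusted p of 0.05. Syk, Card9, Fcer1g and Tyrobp lie near 0, Malt1 and Src lie above it, and 10 of the 13 output genes are filled in each population.

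The other comparison asked whether macrophages with and without YFP differed in these receptors. In the FLT3-CRE/LSL-YFP mice that the study design names, YFP records Flt3-driven Cre, but the genotype of a given sample is not stated. In the main fit, which does not pair samples, none of the 8 tested lectins passed in tumors, while 2.39% of all genes did. Their limma adjusted p-values were 0.742 to 0.996, and none had an unadjusted p under 0.05 in this fit. The largest difference was that of Clec4d, which averaged 1.23 ± 0.36 in YFP+ and 1.74 ± 0.23 in YFP- cells (SD, n = 5 each; log2 difference -0.51, 95% interval -1.31 to 0.29). With the title number as a block the SE of Clec4d was 0.21 in place of 0.37, and it did not pass (limma adjusted p = 0.414). Clec4n averaged 3.56 ± 0.28 and 3.54 ± 0.07 (difference 0.01, interval -0.77 to 0.79) and Clec7a 2.81 ± 0.35 and 2.80 ± 0.35 (0.01, -0.41 to 0.42). For Mgl2 the interval was -0.17 to 0.52, the narrowest, and for Clec5a it was -0.73 to 1.34, the widest. All YFP+ and YFP- groups overlapped in tumor. Of the other lectins tested, Mrc2, a collagen receptor of fibroblasts, was lower in tumor YFP+ than YFP- cells (-4.54 ± 0.59, adjusted p = 5.82e-04), as was Colec12 (at least 2.02-fold lower, adjusted p = 0.0397), beside fibroblast marker sums of 2.19 to 6.72 in tumor YFP+ and 54.3 to 89.5 in tumor YFP- cells.

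In normal pancreas none of the 8 lectins passed either (adjusted p = 0.474 to 0.936), where 0.0207% of all genes did, and 2 had an unadjusted p under 0.05. Clec4e averaged -2.76 ± 1.12 in YFP+ and -4.05 ± 0.80 in YFP- cells (SD, n = 3 each; log2 difference 1.29 ± 0.48, unadjusted p = 0.0181 from limma, adjusted p = 0.474). Clec5a averaged -6.46 ± 0.82 and -4.91 ± 1.74 (-1.55 ± 0.62, unadjusted p = 0.0261, adjusted p = 0.548), with 1 of its 6 values well above background, so that the size cannot be read. Clec7a read 1.63 in each YFP+ sample, above the YFP- samples at 0.92, 1.19 and 1.27 (0.50 ± 0.25, adjusted p = 0.696). Without normal YFP- sample 23912, Clec4n and Clec5a passed, both lower in YFP+ cells (-1.47, adjusted p = 0.0185, and -2.44, adjusted p = 0.0216, for Clec5a between arrays of which 1 was well above background). Calls also rose over all 24171 genes, to 333 without that sample from 5 with it.

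The test of whether the YFP difference itself differed between tumor and normal pancreas called none of the 8 lectins (adjusted p = 0.712 to 0.996) and 0.103% of all genes. Clec4e (-1.57 ± 0.61) and Clec5a (1.85 ± 0.79) had unadjusted p-values of 0.0219 and 0.0339 in limma (adjusted p = 0.712 and 0.786). The larger tumor minus normal difference of Clec4e in YFP- cells is therefore not shown to differ between the populations. Clec5a was well above background on 0 of 3 normal YFP+ and 1 of 3 normal YFP- arrays. The size of its interaction, and which population differed more, can therefore not be read.

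**Figure D5:**
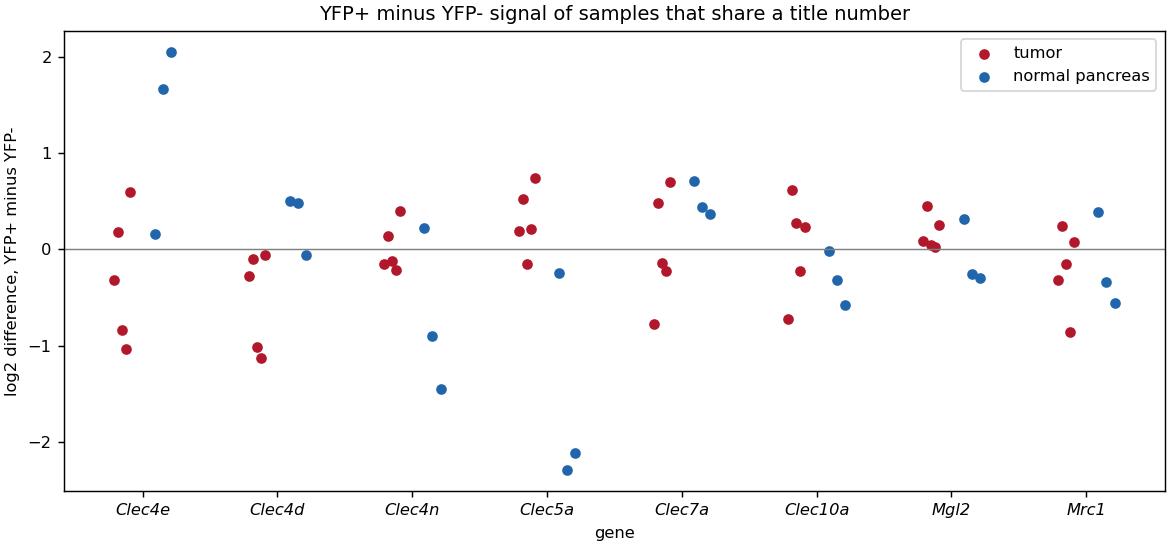
YFP+ minus YFP- log2 difference (y axis) of the 8 tested lectins (x axis) in samples that share a title number, 5 in tumor and 3 in normal pancreas. In tumor the points of 6 genes lie on both sides of 0, all 5 of Clec4d lie below it and all 5 of Mgl2 above it, and in normal pancreas all 3 of Clec4e and of Clec7a lie above it and all 3 of Clec5a and of Clec10a below it. For Clec5a none of the 3 normal YFP+ and 1 of the 3 normal YFP- arrays was well above background, so that its points in normal pancreas have no size that can be read.

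Samples that share a title number were also set against each other. In tumor Clec4d was lower in the YFP+ sample for 5 of 5 numbers, by 0.06 to 1.12 on the log2 scale, and Mgl2 was higher for 5 of 5, by 0.03 to 0.45. Neither passed the test across samples. In normal pancreas Clec4e was higher in the YFP+ sample by 0.16, 1.67 and 2.05, the last against a YFP- array (23917) that was not well above background. Clec7a was higher by 0.36, 0.44 and 0.71. Clec4n differed by -1.45, -0.90 and 0.22, the last value from number 23912. For Clec5a none of the 3 normal YFP+ arrays and 1 of the 3 normal YFP- arrays (23916) was well above background, so that the sizes of its differences cannot be read.

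For each lectin that passed in a comparison, the 3 tested genes with the closest pattern were those with the smallest root mean square (RMS) difference of centred log2 values over the 16 arrays. For Clec4e they were Rgcc, Rai14 and Olr1 (RMS 0.607 to 0.635, beside 2.31 for the median gene). Clec4d was closest to Plk3, Cxcl2 and Sgk1 (0.369 to 0.436, beside 1.58) and Clec4n to Plk3, Htra3 and Areg (0.309 to 0.437, beside 1.71). Clec5a was closest to Clec4n (0.543), then to Mmp13, a collagenase gene, and Pxdc1 (0.606, beside 1.96). Clec7a was closest to Zfp622, Pgs1 and Tmem132a (0.220 to 0.228, beside 0.984), Clec10a to Scamp2, Fli1 and Sft2d2 (0.223 to 0.231, beside 0.731), and Mrc1 to Osbpl11, Mpp1 and Tsc22d3 (0.177 to 0.203, beside 0.824). A lectin's own RMS about its mean was 2.19 for Clec4e and 0.550 for Clec10a, the widest and the narrowest of the 7.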

How the data were processed

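The data are 16 one-colour Agilent 4x44K mouse arrays on 4 slides of 4 arrays; a slide is the set of arrays that share a scan in the headers. The scanner output holds, per the file headers, red-channel intensity values from Agilent Feature Extraction 11.5.1.1, with the processed signal already background-subtracted and detrended and a surrogate value in place of spots below the error, 14.6% to 24.1% of an array. A deposited table of log2 values has the same sorted values in every column within 0.0069, with a median of 9.02; how the authors normalized it is not given in the sources used here, and it served as an alternative.

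Here log2 processed signals were centred on each array's 75th percentile, outlier spots were left out, spots of a probe were averaged, and control probes were dropped. Probes well above background on 3 or more arrays were kept (30566, of which 254 with a missing value were left out), and the brightest probe stood for a gene (5027 genes had several). Genes were named through RefSeq accessions (28758 probes), symbols (2029) or synonyms (162), and 8480 probes kept the file's name. limma 3.58.1 in R 4.3.3 (lmFit, eBayes) fitted 4 group means over all arrays, with two-sided tests; p-values were adjusted by Benjamini-Hochberg across the 24171 genes and called under 0.05. The script was tested on simulated data. Alternatives were normexp background correction (offset 50), quantile normalization, the deposited values, no filter or a filter of 8 arrays, the slide or the title number as a block, array weights, the mean over probes, and leaving out each sample. The number of arrays limits the precision. The 10 genes and all gene lists were chosen with earlier results of these data known. Named beside the 10 genes are list genes past the threshold (at most the 6 of largest size per list and comparison), Syk, Card9, Fcer1g, Tyrobp, Ptpn6, Inpp5d and Flt3, cell type markers (1 of them is not reported here and was left out of its list), and the 3 genes of most similar pattern.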

Additional observations from a re-analysis of the deposited data

Results flagged for a closer look

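Clec12a, the inhibitory receptor that was not tested, read -7.18 on the array of tumor YFP+ sample 23551, below the other 4 tumor YFP+ arrays at -7.05 to -7.01, a gap of 0.787 of the whole range. It was well above background on none of the 5 arrays, so these values have no order that can be read. Of the 20 sets of 5 tumor arrays examined this was the only one past Dixon's critical value of 0.71, and chance alone marks about 1 in 20.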

How the results depend on the processing

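The 5 lectins that rose in tumor kept their direction and their call in both populations under every alternative run, except Clec5a in YFP- cells with array weights (1.13, adjusted p = 0.0784). Clec10a and Mrc1 crossed the threshold in both directions, as given above, Mgl2 in YFP- cells passed under some alternatives, and Mgl2 in YFP+ cells passed under none; with array weights Clec10a (-0.77, adjusted p = 0.0291) and Mrc1 (-1.19, adjusted p = 0.00757) in YFP+ cells and Mgl2 in YFP- cells (-0.61, adjusted p = 0.00453) passed too, and without a filter on dim probes Mrc1 in YFP- cells did not (adjusted p = 0.0590). The count of lectins past the threshold between YFP+ and YFP- cells of normal pancreas, 0 in the report, was 1 with array weights (Clec5a, -2.68, adjusted p = 0.00716) and lay between 0 and 2 when single samples were left out, with 2 without normal YFP- sample 23912. Over all genes the count without that sample was 333, against 5 with it. Of the uncalled differences near 0, some changed sign. In tumor Clec4n was -0.0424 with quantile normalization, -0.0474 with the deposited values and -0.0504 with array weights, Clec7a was -0.0506, -0.0574 and -0.104 under the same, and Clec10a was -0.026 with quantile normalization and -0.0326 with the deposited values. In normal pancreas Clec4d was -0.15 with array weights, and the interaction of Mrc1 was 0.0415 with normexp and 0.0389 with array weights. With single samples left out, the ranges were -0.0759 to 0.0663 for Clec4n, -0.12 to 0.12 for Clec7a and -0.0801 to 0.14 for Clec10a in tumor, -0.23 to 0.76 for Clec4d, -0.29 to 0.0487 for Mgl2 and -0.61 to 0.13 for Mrc1 in normal pancreas, and -0.33 to 0.41 for the interaction of Mrc1. Of all genes, array weights called 1162 between the populations of normal pancreas (5 without), 4449 between tissues in YFP+ cells (2924), 9231 in YFP- cells (3825) and 358 in the interaction (25). In normal pancreas 16 genes passed with quantile normalization, 15 with the deposited values, 10 without a filter, 2 with the slide as a block and 0 with normexp. In the interaction 5 passed with the filter of 8 arrays and 9 with the slide as a block. The median of all genes between tissues in YFP- cells was 0.06 with normexp, against -0.16. The cause of these changes was not tested. With the title number as a replicate block, 599 genes passed in tumor, 0 in normal pancreas and 16 in the interaction, and no call of a lectin changed; the consensus correlation was 0.0285. Same-numbered samples deviated together at r = 0.316, 0.226, 0.0572, -0.189 and -0.290 in tumor and 0.276, 0.134 and -0.0171 in normal pancreas, which does not bear out a pairing. Dim signal limits what can be read of Clec4a2, Clec12a and, in normal pancreas, Clec5a and Clec4e.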
